A study of Mus musculus with 3 samples.

Results

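Integrins, a selectin with its main ligand, and other leukocyte adhesion genes were described in 3 myeloid populations of the mouse colon. The set was given as a list of 33 gene symbols, and all 33 were among the 24346 symbols of the tables. It holds 16 integrin alpha subunits, 8 integrin beta subunits, P-selectin (Selp), the selectin ligand PSGL-1 (Selplg), the hyaluronan receptor Cd44 and 6 adhesion receptors of the immunoglobulin type. RNA was sequenced from Gr-1+ CD11b+ cells, labelled as neutrophils and monocytes, from CD64- dendritic cells (DC) and from CD64+ macrophages. All were colonic cells of healthy BALB/c mice, with no treatment named. No age or sex is given, nor whether several animals were pooled. With 1 library per population there are no replicates, and the differences below are descriptions without a test.

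Integrins are heterodimers of an alpha and a beta subunit that bind matrix proteins or receptors on other cells, and they hold only weakly until signals from inside the cell switch them to an open form. Leukocytes use the beta 2 family (Itgb2, CD18), in which the alpha subunits L, M, X and D give LFA-1, Mac-1, CD11c/CD18 and CD11d/CD18, to adhere firmly and to take up opsonised particles. In the gut, alpha 4 beta 7 binds MAdCAM-1 on venules, and alpha E beta 7 binds E-cadherin on epithelial cells. Selectins act earlier, when leukocytes roll on the vessel wall, and PSGL-1 is their main ligand on leukocytes.

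Values are FPKM, fragments per kilobase of transcript scaled by the fragments of the library, and so are levels per length. The gates were checked first. Fcgr1, the gene of CD64, measured 12.3 FPKM in Gr-1+ CD11b+ cells, 9.23 FPKM in DC and 113 FPKM in macrophages. The summed level of 10 neutrophil markers was 168904, 1683 and 4327 FPKM in Gr-1+ CD11b+ cells, DC and macrophages, that of 10 macrophage markers 2513, 3301 and 28319, and that of 10 DC markers 250, 1572 and 401. The sum of each list was highest in the library named for it. Ccr7 gave 1004 FPKM of the DC sum in DC, and 3 of the 10 DC markers were not highest there, with Batf3 at 1.58, 20.6 and 42.1 FPKM, Clec10a at 9.51, 51.2 and 77.97, and Xcr1 at 4.18, 2.83 and 3.30. The libraries also held RNA of other cells. The summed level of 8 B and plasma cell markers was 431, 22684 and 1164 FPKM in the same order, of 11 epithelial markers 1271, 610 and 381, of 10 stromal markers 358, 347 and 199, and of 11 T and NK cell markers 56.4, 138 and 91.5. Genes that these cells should not use differed in level too. The 95th percentile of 1445 receptor genes of smell (olfactory and vomeronasal) was 9.67 FPKM in Gr-1+ CD11b+ cells, 0.610 FPKM in DC and 3.23 FPKM in macrophages, called the silent-gene level here, a measure known from earlier results of these data, and values under it are not taken as expression. In bulk RNA, fewer cells of a type and less RNA per cell cannot be told apart.

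The promoter windows of 4 members are shown because of the results below. Itgam and Itgax are neighbours with a gap of 11.1 kb on chromosome 7 but were ordered differently across the libraries, Itgb5 had the largest differences from macrophages, and Icam1 was among the most abundant members. Each window runs from 250 bases before to 50 bases after the annotated start (RefSeq, GRCm38.p6), 5' to 3' on the plus strand, and the windows are chr7:128062390-128062689, chr7:128129300-128129599, chr16:33829415-33829714 and chr9:21015690-21015989 for Itgam, Itgax, Itgb5 and Icam1.
Itgam: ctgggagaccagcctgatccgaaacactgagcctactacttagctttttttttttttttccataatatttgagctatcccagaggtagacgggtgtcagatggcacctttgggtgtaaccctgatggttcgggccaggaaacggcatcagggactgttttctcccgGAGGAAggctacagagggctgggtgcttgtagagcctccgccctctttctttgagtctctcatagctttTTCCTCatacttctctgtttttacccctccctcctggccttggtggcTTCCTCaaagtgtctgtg
Itgax: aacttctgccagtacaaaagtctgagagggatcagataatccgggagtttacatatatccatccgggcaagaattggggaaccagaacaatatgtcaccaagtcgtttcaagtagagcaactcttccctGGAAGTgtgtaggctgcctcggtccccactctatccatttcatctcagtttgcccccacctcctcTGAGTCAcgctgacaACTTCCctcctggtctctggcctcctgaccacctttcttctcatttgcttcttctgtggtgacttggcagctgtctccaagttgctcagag
Itgb5: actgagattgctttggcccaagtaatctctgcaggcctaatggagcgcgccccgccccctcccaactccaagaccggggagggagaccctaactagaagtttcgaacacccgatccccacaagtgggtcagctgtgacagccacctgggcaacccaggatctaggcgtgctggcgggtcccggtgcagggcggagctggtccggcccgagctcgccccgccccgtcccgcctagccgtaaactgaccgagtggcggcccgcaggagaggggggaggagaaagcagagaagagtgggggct
Icam1: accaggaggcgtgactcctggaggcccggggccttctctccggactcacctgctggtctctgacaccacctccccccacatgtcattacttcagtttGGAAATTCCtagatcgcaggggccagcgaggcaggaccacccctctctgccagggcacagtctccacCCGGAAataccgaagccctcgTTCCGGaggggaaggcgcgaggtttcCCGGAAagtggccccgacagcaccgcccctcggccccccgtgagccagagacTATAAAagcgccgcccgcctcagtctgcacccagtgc
Capitals mark GAGGAA in Itgam, GGAAGT and TGACTCA in Itgax, and GGAAATTCC, TTCCGG and TATAAA in Icam1, each on either strand. In all, 8 motifs were searched on both strands, the others being GAGGAAG, which contains GAGGAA, and CACGTG. Purine-rich letters around GGAA are bound by ETS factors such as PU.1, TGACTCA by AP-1 and GGAAATTCC by NF-kB. TATAAA holds letters of the TATA box, which lies before a start. The match in Icam1 begins 13 bases after the RefSeq start. In GENCODE M21 the gene starts later, at chr9:21015985, and the match lies before that start, so its place depends on the annotation. The window of Itgb5 held none of the 8, and its GC content was 65.7%, against 50.3% for Itgam and 64.7% for Icam1. Of all 32851 windows in the table, 28.3% held GAGGAA, 23.8% GGAAGT, 13.6% GAGGAAG, 14.9% TTCCGG, 13.6% TATAAA, 7.15% CACGTG, 5.20% TGACTCA and 0.317% GGAAATTCC. The table had 22 windows for 20 of the 33 members, of which 10 held GAGGAA and 1, that of Icam1, held GGAAATTCC. A match is a description of the letters and not a site of binding.

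Transcript levels of the 33 members ranged between 0.0989 and 901 FPKM. In Gr-1+ CD11b+ cells 15 exceeded the silent-gene level, in DC 26 and in macrophages 19. Since that level differed between the libraries, these counts do not rank the populations. The same 15 exceeded it in all 3 libraries. These were Itga5, Itgal, Itgam, Itgax, Itgb1, Itgb2, Itgb5, Itgb7, Selp, Selplg, Icam1, Icam2, Vcam1, Cd44 and F11r. The 7 that exceeded it in none were Itga2, Itga7, Itga8, Itgad, Itgb4, Itgb6 and Itgb8. The remaining 11 exceeded it in DC alone or in DC and macrophages. Of the 33, 19 reached 10 FPKM in any library, and at that level a member's value rested on about 100.1 fragments or more, as estimated from the steps of low values.

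**Figure D1:**
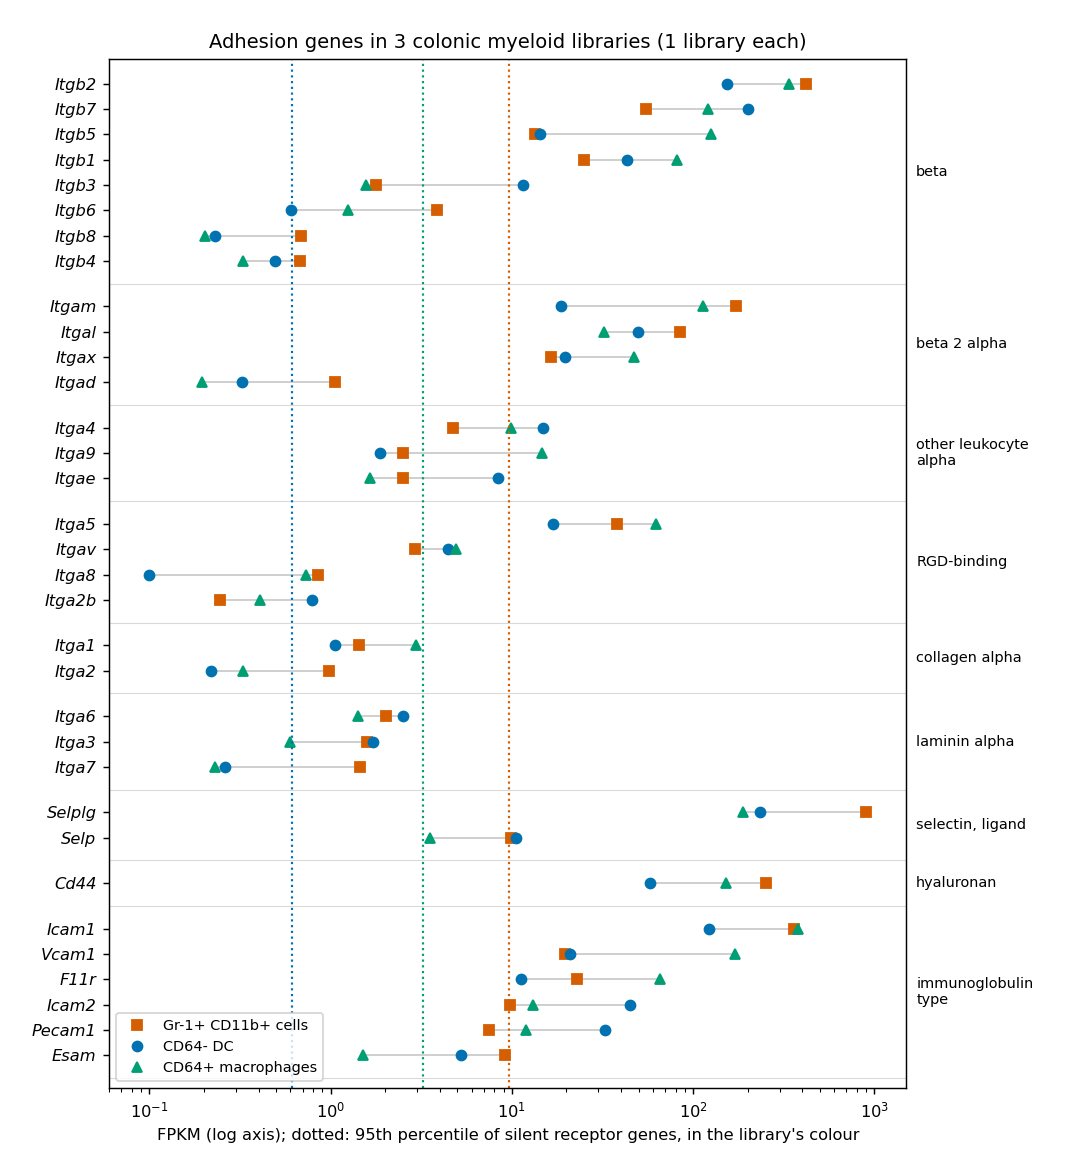
FPKM of each of the 33 adhesion genes on a log axis, with 1 point per library (squares, Gr-1+ CD11b+ cells; circles, DC; triangles, macrophages), grouped by role, and the silent-gene level of each library as a dotted line in its colour. Selplg reached 901 FPKM in Gr-1+ CD11b+ cells, and most alpha subunits outside the beta 2 family lay under the silent-gene levels of 9.67 FPKM in Gr-1+ CD11b+ cells and 3.23 in macrophages.

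Itgb2 was the most abundant integrin gene in Gr-1+ CD11b+ cells and in macrophages, and Itgb7 was in DC. Itgb2 measured 419 FPKM in Gr-1+ CD11b+ cells, 153 FPKM in DC and 337 FPKM in macrophages, and so held rank 235, 666 and 400 of all 24346 genes. It was lowest in DC, with log2(FPKM + 1) differences of 1.45 for Gr-1+ CD11b+ cells minus DC and -1.14 for DC minus macrophages. Among the beta subunits summed, Itgb2 made up 80.7% in Gr-1+ CD11b+ cells, against 35.9% in DC and 50.5% in macrophages. The 4 alpha partners of beta 2 summed to 65.4%, 57.9% and 57.3% of the Itgb2 level in the same order, so that ratio was alike in the 3 libraries while the makeup of the partners was not.

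Itgam, the alpha M chain of Mac-1 (CD11b), which binds iC3b and fibrinogen, measured 172 FPKM in Gr-1+ CD11b+ cells, 18.7 FPKM in DC and 114 FPKM in macrophages. It was high in both other libraries relative to DC, with a log2 difference of 3.14 for Gr-1+ CD11b+ cells minus DC and -2.55 for DC minus macrophages. CD11b protein was part of the Gr-1+ CD11b+ gate, so the first value is not independent of the sort. Itgal, the alpha L chain of LFA-1 that binds ICAM proteins, had levels of 84.4, 49.9 and 32.3 FPKM in Gr-1+ CD11b+ cells, DC and macrophages. The level of Itgax, which encodes the alpha X chain CD11c, was 16.4, 19.7 and 47.0 FPKM in the same order. Among the 4 partners, Itgam made up 62.8% in Gr-1+ CD11b+ cells, against 21.1% in DC and 58.9% in macrophages, and Itgal made up 30.8%, 56.3% and 16.7%. Itgax made up 5.995%, 22.2% and 24.3%. Itgam thus led in Gr-1+ CD11b+ cells and macrophages and Itgal in DC. Itgad stayed under the silent-gene level, at 1.05, 0.323 and 0.194 FPKM. Shares within a library do not depend on its scaling. Itgal is expressed by lymphocytes as well, and the B and plasma cell sum was highest in DC, at 22684 FPKM against 431 in Gr-1+ CD11b+ cells and 1164 in macrophages. Its part in the DC values was not tested.

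**Figure D2:**
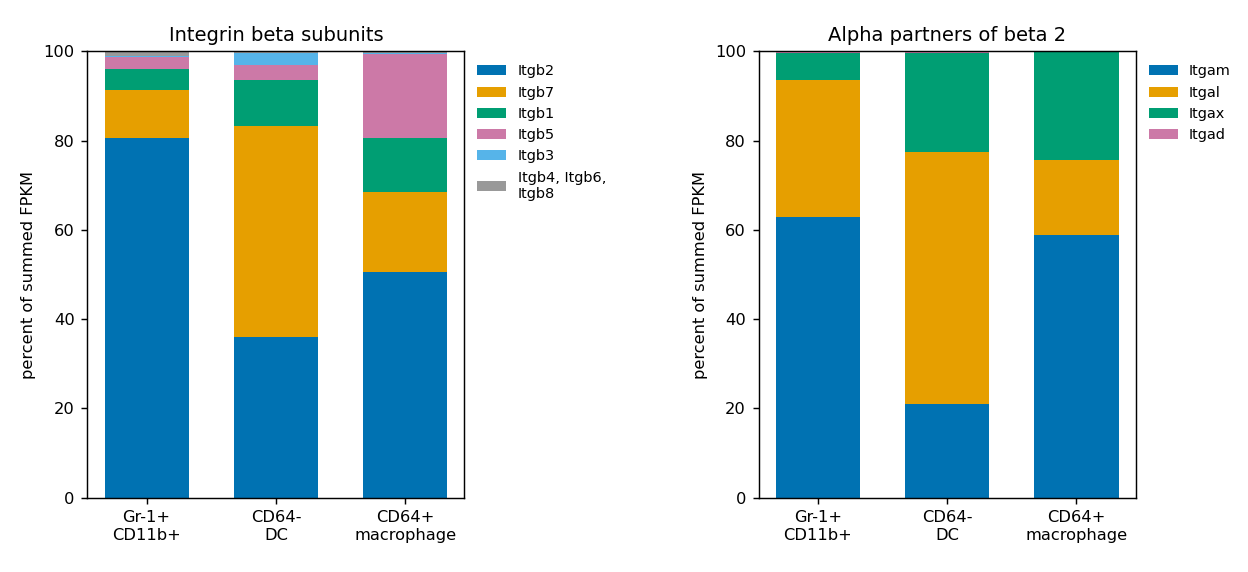
Stacked bars give the percent of summed FPKM held by each integrin beta subunit (left) and by each alpha partner of beta 2 (right) in 1 library of Gr-1+ CD11b+ cells, DC and macrophages. Itgb2 held 80.7% of the beta sum in Gr-1+ CD11b+ cells, Itgb7 47.5% in DC, and Itgal 56.3% of the partners in DC.

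Beta 7 and its partners were higher in DC than elsewhere by moderate amounts. Itgb7 measured 54.9 FPKM in Gr-1+ CD11b+ cells, 202 FPKM in DC and 120 FPKM in macrophages, and made up 10.6%, 47.5% and 18.0% of the beta sum. Its log2 difference was -1.86 for Gr-1+ CD11b+ cells minus DC and 0.74 for DC minus macrophages. Itga4, the alpha 4 chain of the gut-homing integrin, had levels of 4.71, 14.8 and 9.82 FPKM in the same order, with the first value under the silent-gene level. Itgae, the alpha E chain CD103 found on subsets of intestinal DC and on intraepithelial T cells, was at 2.51, 8.42 and 1.65 FPKM, and exceeded the silent-gene level in DC alone. The gene Cerkl overlaps Itga4 on the opposite strand, and strand was not stated to be kept, so their reads cannot be told apart. The T and NK cell sum, 138 FPKM in DC against 56.4 in Gr-1+ CD11b+ cells and 91.5 in macrophages, and the B and plasma cell sum were likewise highest in DC. Itgb7 and Itga4 followed the order of both sums, while Itgae was lowest in macrophages. Of the T and NK cell sum, Cd4 gave 3.83, 20.3 and 48.9 FPKM. Cd3d, Cd8b1 and Klrb1c were highest in Gr-1+ CD11b+ cells, under the silent-gene level there, and the other T and NK cell markers in DC. The part of lymphoid and plasma cells in these genes was not tested.

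Itgb5 stood out in macrophages and Itgb3 in DC. Itgb5, which pairs with alpha V to bind vitronectin and takes part in the uptake of apoptotic cells, measured 13.5 FPKM in Gr-1+ CD11b+ cells, 14.3 FPKM in DC and 126 FPKM in macrophages. Its values in Gr-1+ CD11b+ cells and DC were near each other, and the macrophage value stood apart, with log2 differences of -3.13 for Gr-1+ CD11b+ cells and -3.05 for DC minus macrophages. The macrophage marker sum followed the same order, at 2513, 3301 and 28319 FPKM. Itgb3, the beta chain of the vitronectin receptor and of the platelet integrin, was at 1.77, 11.5 and 1.57 FPKM, and only the DC value exceeded the silent-gene level. Its 95% counting interval was 10.6 to 12.5 FPKM in DC, against 1.11 to 2.64 in Gr-1+ CD11b+ cells and 1.19 to 2.05 in macrophages. The alpha subunits that pair with beta 3 were low. Itgav was at 2.94, 4.46 and 4.92 FPKM, and Itga2b, the platelet chain, at 0.245, 0.786 and 0.407. The 10 platelet and megakaryocyte markers summed to 58.7, 67.0 and 527 FPKM, of which Pf4, which macrophages also express, gave 48.5, 58.4 and 516. Those above the silent-gene level were 1, 2 and 2 of 10, in DC Pf4 and Ppbp. Ppbp was at 2.73, 6.997 and 2.52 FPKM, highest in DC as Itgb3 was, while Gp9 was at 0.185 and Gp6 at 0 in DC. The part of platelet RNA in the Itgb3 values was not tested. Itgb1, the partner of many matrix-binding chains, was at 24.95, 43.4 and 81.2 FPKM. Itgb6, found mainly in epithelium, and Itgb4, which anchors epithelium to laminin, reached 3.86 and 0.680 FPKM in Gr-1+ CD11b+ cells, under its silent-gene level. Itgb8, whose pairing with alpha V activates TGF-beta, was at 0.684, 0.229 and 0.202 FPKM.

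Among alpha subunits outside the beta 2 and beta 7 families, Itga5 and Itga9 alone reached 10 FPKM in any library. Itga5, the fibronectin receptor chain that pairs with beta 1, measured 38.0 FPKM in Gr-1+ CD11b+ cells, 16.9 FPKM in DC and 62.2 FPKM in macrophages and so was lowest in DC, as were Itgb2 and Itgam. Itga9, which pairs with beta 1 and binds VCAM-1, tenascin and osteopontin, was at 2.50, 1.88 and 14.7 FPKM, with log2 differences of -2.17 for Gr-1+ CD11b+ cells and -2.45 for DC minus macrophages. Its value in Gr-1+ CD11b+ cells was under the silent-gene level there, and the macrophage value stood apart from both others. The collagen-binding chain Itga1 was at 1.43, 1.05 and 2.95 FPKM, and Itga2 did not reach 1 FPKM. The laminin-binding chains were at 2.01, 2.51 and 1.42 FPKM for Itga6, 1.58, 1.72 and 0.593 for Itga3, and 1.45, 0.260 and 0.230 for Itga7. Itga8 was at 0.849, 0.0989 and 0.732 FPKM. Of these 6, Itga1, Itga3 and Itga6 exceeded the silent-gene level in DC only.

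Selplg, the gene of PSGL-1, was the most abundant member in Gr-1+ CD11b+ cells and in DC. It measured 901 FPKM in Gr-1+ CD11b+ cells, 233 FPKM in DC and 189 FPKM in macrophages, and held rank 108, 441 and 678. Its log2 difference was 2.25 for Gr-1+ CD11b+ cells minus macrophages and 1.94 for Gr-1+ CD11b+ cells minus DC. Relative to the pan-leukocyte gene Ptprc, Selplg stood at 442%, 159% and 91.8% in the same order. Selp, stored in platelets and endothelial cells, was at 9.90, 10.6 and 3.52 FPKM, just above the silent-gene levels of 9.67 in Gr-1+ CD11b+ cells and 3.23 in macrophages. Cd44, which binds hyaluronan and also carries selectin ligands, was at 252, 57.5 and 152 FPKM, lowest in DC, with a log2 difference of 2.11 for Gr-1+ CD11b+ cells minus DC.

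Of the 6 immunoglobulin-type receptors, Icam1, Vcam1 and F11r were highest in macrophages and Icam2 and Pecam1 in DC, while Esam exceeded the silent-gene level in DC alone. Icam1, the inducible ligand of LFA-1 and Mac-1, measured 359 FPKM in Gr-1+ CD11b+ cells, 123 FPKM in DC and 379 FPKM in macrophages, so Gr-1+ CD11b+ cells and macrophages were near each other and DC were lower. Vcam1, the ligand of alpha 4 integrins, was at 19.7, 20.8 and 170 FPKM, and the macrophage value stood apart, with log2 differences of -3.04 for Gr-1+ CD11b+ cells and -2.97 for DC minus macrophages. F11r, the junctional protein JAM-A found on epithelium, platelets and leukocytes, was at 22.9, 11.2 and 65.3 FPKM, with a log2 difference of -2.45 for DC minus macrophages. The epithelial marker sum was lowest in macrophages, where F11r was highest. The part of epithelial RNA in the F11r values was not tested. Icam2, a constitutive LFA-1 ligand, and Pecam1, which acts in transmigration, were instead highest in DC. Icam2 was at 9.77, 44.9 and 13.03 FPKM, and Pecam1 at 7.49, 32.6 and 12.01. Their log2 differences for Gr-1+ CD11b+ cells minus DC were -2.09 and -1.98. Pecam1 in Gr-1+ CD11b+ cells was under the silent-gene level there, so the size of its difference is uncertain. Esam, a junctional protein of endothelium and platelets, was at 9.13, 5.24 and 1.51 FPKM, and its difference of 2.01 for Gr-1+ CD11b+ cells minus macrophages did not count because no value reached 10 FPKM.

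Endothelial markers bear on Selp, Vcam1, Icam2, Pecam1 and Esam, which endothelial cells also express. The 10 endothelial markers summed to 35.7 FPKM in Gr-1+ CD11b+ cells, 35.7 FPKM in DC and 9.49 FPKM in macrophages, of which Plvap gave 21.2, 21.8 and 3.23. The remaining 9 were each under 4 FPKM in every library, and Cdh5 was at 1.04, 0.321 and 0.309. The counts above the silent-gene level were 1 of 10, 9 of 10 and 1 of 10. That level was lowest in DC, at 0.610 FPKM, so these counts do not rank the libraries. Vcam1 was highest in macrophages, where this sum was lowest, and Selp and Esam were lower there, as the sum was. The part of endothelial RNA in the values of Vcam1, Selp and Esam was not tested. Icam2 and Pecam1 were highest in DC, where most endothelial markers exceeded the silent-gene level and the B and plasma cell sum was 22684 FPKM, against 431 in Gr-1+ CD11b+ cells and 1164 in macrophages. The part of these cells in both genes was not tested either.

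The members were compared by a rule of size, which asks for a log2(FPKM + 1) difference of at least 2 and for at least 10 FPKM in the higher library of the pair. It was applied to 17329 genes at 1 FPKM or more in any library, 28 of them members. For Gr-1+ CD11b+ cells against DC, 2 members were higher in Gr-1+ CD11b+ cells (Itgam and Cd44) and 2 in DC (Itgb3 and Icam2). That was 14.3% of 28, against 9.93% of all genes, of which 3.65% were higher in Gr-1+ CD11b+ cells and 6.28% in DC. For Gr-1+ CD11b+ cells against macrophages, Selplg was higher in Gr-1+ CD11b+ cells and Itga9, Itgb5 and Vcam1 in macrophages, again 14.3%, against 4.82% of all genes (1.41% higher in Gr-1+ CD11b+ cells and 3.41% in macrophages). For DC against macrophages, Itgb3 was higher in DC, and Itga9, Itgam, Itgb5, Vcam1 and F11r were higher in macrophages. These 6 were 21.4% of 28, against 3.85% of all genes, of which 1.53% were higher in DC and 2.31% in macrophages. Some calls rest on a lower value that is not taken as expression. Itgb3 in Gr-1+ CD11b+ cells (1.77 FPKM) and macrophages (1.57) and Itga9 in Gr-1+ CD11b+ cells (2.50) lay under the silent-gene level there. The size of these differences is thus uncertain. Icam2 in Gr-1+ CD11b+ cells, at 9.77 FPKM, was just above that level of 9.67.

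Because the rule favours abundant genes, the shares were also taken over the 7087 genes at 10 FPKM or more in any library, 19 of them members, a set chosen after the values were seen. The shares were then 21.1% of members against 24.3% of genes for Gr-1+ CD11b+ cells and DC, 21.1% against 11.8% for Gr-1+ CD11b+ cells and macrophages, and 31.6% against 9.41% for DC and macrophages. The first was near the background and is not a result about the members. The median log2 difference of the 28 members was 0.09 for Gr-1+ CD11b+ cells minus DC, against 0.01 over all 17329 genes, 0.02 against 0.10 for Gr-1+ CD11b+ cells minus macrophages, and -0.04 against -0.05 for DC minus macrophages. In each comparison 14 members were higher and 14 lower in the first library. The comparisons share libraries pairwise, so a low value in DC enters both of its comparisons.

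**Figure D3:**
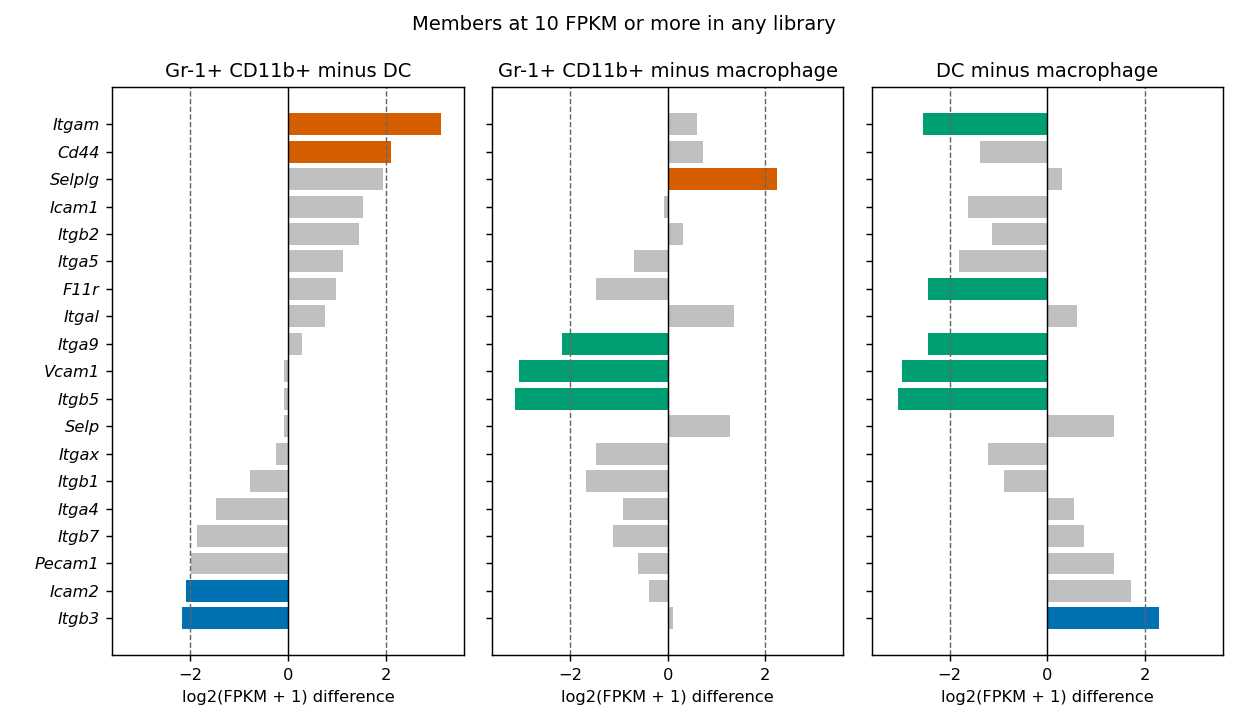
Bars give log2(FPKM + 1) differences, first library minus second, of the 19 members at 10 FPKM or more in any library, with dashed lines at -2 and 2. Coloured bars passed the size rule and take the colour of the higher library (orange, Gr-1+ CD11b+ cells; blue, DC; green, macrophages), with Itgb5 at -3.13 and -3.05 against macrophages and Itgam at 3.14 for Gr-1+ CD11b+ cells minus DC.

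Scaling changed some of these calls. Itgam, Itgb5, Vcam1, F11r and Selplg passed in the comparisons named above under equal FPKM sums, median ratios and equal 75th percentiles, as did Itga9 for DC minus macrophages. The log2 difference of Cd44 between Gr-1+ CD11b+ cells and DC was 1.74 with equal sums. That of Icam2 was -1.85 with median ratios and -1.37 with equal 75th percentiles, and that of Itgb3 in this pair was -1.98 and -1.58. For Itga9 in Gr-1+ CD11b+ cells minus macrophages these scalings gave -1.98 and -1.70. Itgb3 in DC was under the floor of 10 FPKM with equal 75th percentiles, although its difference from macrophages was 2.08. Members not called as deposited passed under other scalings. For Gr-1+ CD11b+ cells minus DC, Selplg passed with median ratios and, at 2.71, with equal 75th percentiles, as did Itgb2 at 2.22 and Icam1 at 2.31, while Itgb7 and Pecam1 passed at -2.23 and -2.33 with equal sums. Esam passed for Gr-1+ CD11b+ cells minus macrophages, at 2.52 with equal 75th percentiles. Icam2 and Itgae passed for DC minus macrophages, at 2.08 and 2.14 with equal sums. As deposited, Esam lay under the silent-gene level in Gr-1+ CD11b+ cells and in macrophages. Pecam1 did so in Gr-1+ CD11b+ cells and Itgae in macrophages, so the sizes of these differences are uncertain.

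**Figure D4:**
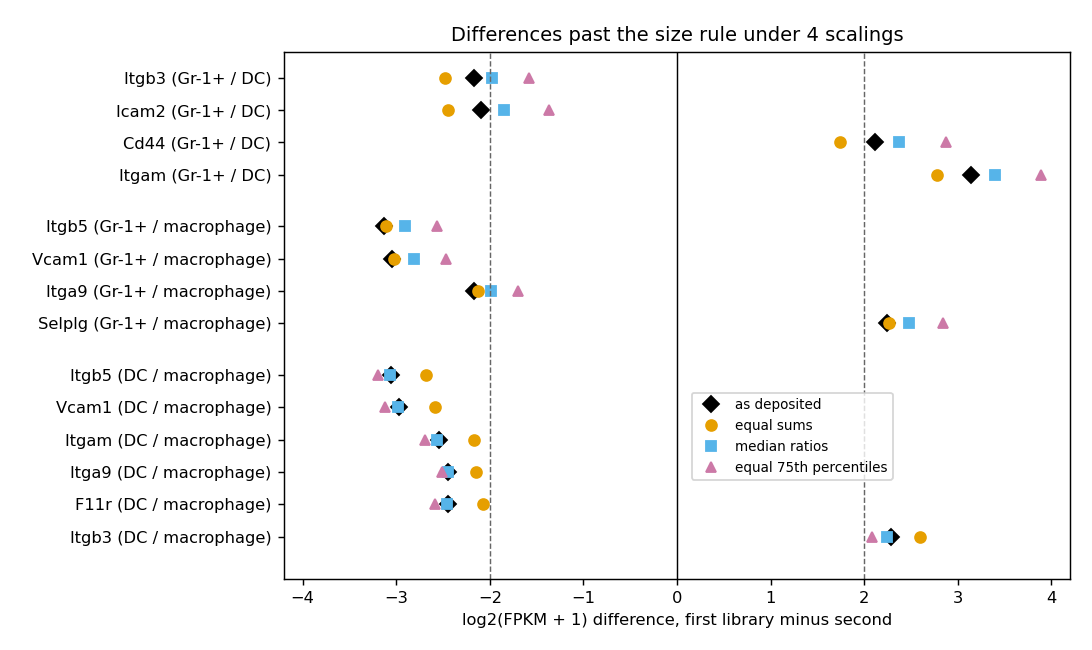
Points give the log2(FPKM + 1) difference, first library minus second, of each of the 14 calls as deposited and under 3 other scalings, with dashed lines at -2 and 2. The signs did not change. Cd44 crossed the line at 1.74 with equal sums, and with equal 75th percentiles Icam2 did at -1.37 and Itgb3 at -1.58 for Gr-1+ CD11b+ cells minus DC, and Itga9 at -1.70 for Gr-1+ CD11b+ cells minus macrophages.

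Genes that switch integrins on inside the cell were described next. Of 40 such genes, 39 reached 1 FPKM in any library. The size rule was passed by 5 higher in Gr-1+ CD11b+ cells than in DC (Fyb, Pxn, Fgr, Zyx and Tyrobp) and by 0 lower. It was passed by 0 between Gr-1+ CD11b+ cells and macrophages. In DC 0 were higher than in macrophages and 3 lower, among them Fyb and Tyrobp. These were 12.8%, 0% and 7.69% of the 39, against 9.93%, 4.82% and 3.85% of all genes. Of genes at 10 FPKM or more, 24.3%, 11.8% and 9.41% passed, but the share of the list at that level was not taken. The shares of the 39 are therefore not read as a result about the list. With equal FPKM sums the 5 became 2 and the 3 became 1. Pxn and Zyx were outside the naming rule and are given because they passed. Tyrobp, the adaptor DAP12 that relays integrin signals to Syk, measured 8167 FPKM in Gr-1+ CD11b+ cells, 1062 FPKM in DC and 5327 FPKM in macrophages. Fgr, a Src family kinase downstream of beta 2 integrins, was at 275, 43.2 and 130, and Fyb, the adaptor ADAP, at 30.4, 5.93 and 51.6. Rac2, Arhgdib and Coro1a, regulators of the actin cytoskeleton, did not pass the rule. Rac2 was at 713, 330 and 238 FPKM, Arhgdib at 1120, 1212 and 1239, and Coro1a at 1382, 1256 and 1116. Actn1, an actin crosslinker, was at 8.61, 1.16 and 0.702 FPKM and did not reach the floor of the rule. The median difference of the list was 0.14, -0.03 and -0.15 for Gr-1+ CD11b+ cells minus DC, Gr-1+ CD11b+ cells minus macrophages and DC minus macrophages.

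Of 37 further selectin, selectin-ligand and adhesion receptor genes in the tables, 36 reached 1 FPKM. By the size rule, Gr-1+ CD11b+ cells had 4 higher and 2 lower against DC, and 5 higher and 2 lower against macrophages. DC had 2 higher and 3 lower against macrophages. These were 16.7%, 19.4% and 13.9% of the 36, against 9.93%, 4.82% and 3.85% of all genes. Of genes at 10 FPKM or more, 24.3%, 11.8% and 9.41% passed. The share of the list at that level was not taken, so these last shares are not like for like with it. The shares of the 36 are therefore not read as a result about the list. With equal sums the 4 became 2, and with equal 75th percentiles 7. The median difference was -0.33, 0.11 and 0.06 in these comparisons. Adam8, a sheddase of adhesion receptors, measured 811 FPKM in Gr-1+ CD11b+ cells, 53.8 FPKM in DC and 131 FPKM in macrophages, and Cd9, a tetraspanin that associates with integrins, was at 1041, 162 and 350. Plaur, the urokinase receptor, which binds Mac-1, was at 1801, 361 and 1601 FPKM. Cd63 was at 403, 215 and 953, Cd81 at 49.6, 221 and 328, and Cd37, a tetraspanin of B cells and myeloid cells, at 246, 536 and 68.1. Mcam, an endothelial and stromal receptor, was at 10.3, 1.44 and 0.544 FPKM.

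Of 30 extracellular ligands of integrins and CD44, 21 reached 1 FPKM. By the size rule, Spp1 and Thbs1 were higher in Gr-1+ CD11b+ cells than in DC and lower in DC than in macrophages, and 0 passed between Gr-1+ CD11b+ cells and macrophages. That was 9.52% of the 21 in each of the comparisons with DC. Of all genes, 9.93% passed for Gr-1+ CD11b+ cells and DC, which the list did not exceed, and 3.85% for DC and macrophages. Of genes at 10 FPKM or more, 24.3% and 9.41% passed in these comparisons, but the share of the list at that level was not taken. The shares of the 21 are therefore not read as a result about the list. The median difference was 0.16 for Gr-1+ CD11b+ cells minus DC, 0.70 for Gr-1+ CD11b+ cells minus macrophages and 0.52 for DC minus macrophages. Spp1 (osteopontin), a ligand of Cd44 and of alpha V and alpha 9 integrins, measured 285 FPKM in Gr-1+ CD11b+ cells, 11.7 FPKM in DC and 76.1 FPKM in macrophages, and Thbs1 (thrombospondin 1) was at 970, 104 and 1020. Fn1, the ligand of alpha 5 beta 1, was at 7.98, 11 and 34.4 FPKM. C3, whose fragment iC3b is bound by Mac-1, was at 59.8, 32.5 and 67.2, and the hyaluronan synthase gene Has1 at 54.8, 53.7 and 37.1. Fga was at 3.74, 0.0908 and 0.540 FPKM, under the silent-gene level of each library.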

How the data were processed

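For every gene symbol, the authors deposited FPKM values, in a separate table for each of the 3 libraries. RNA was extracted with an RNeasy kit, and full-length cDNA (SMART-Seq HT) was made into Nextera libraries, per the labels' protocols. Cufflinks 2.2.1, Bowtie2 2.2.3, TopHat2 2.0.13, SAMtools 0.1.19 and the build mm10 are listed without roles per the submitters' processing notes. The annotation used is not named there.

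FPKM values were used as deposited, with a pseudocount of 1 before log2, which understates differences of low genes. The members, lists and rules were chosen with earlier results of these data known. All 33 members are named, and of each further list the 4 genes with the highest FPKM and the 4 with the largest difference. Of the lists, 1 symbol (Cd99) was not used here. Coordinates and transcript lengths came from GENCODE M21 (GRCm38), and exons of 11 members overlap another gene there, so their values may hold its reads. Itgam, Icam1, Vcam1 and Itga4 are among them.

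Depth was estimated from steps in FPKM times length of genes with 1 transcript over 800 nt. On a 1 kb transcript, 1 fragment was worth 0.442 FPKM in Gr-1+ CD11b+ cells, 0.123 FPKM in DC and 0.163 FPKM in macrophages, and 62.9%, 70.1% and 60.4% of low values came within 0.2 of a whole number of fragments, against 40% for values spread evenly. Fragment numbers are thus approximate, and the 95% Poisson intervals cover counting error only. The size rule and the step estimate were tested on simulated counts. Alternatives were other pseudocounts, floors, log2 limits and scalings, and subtraction of the silent-gene median. Calculations used Python 3.11.15, NumPy 2.4.6, pandas 2.3.3 and SciPy 1.17.1, with figures by matplotlib 3.10.9.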

Additional observations from a re-analysis of the deposited data

How the results depend on the processing

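No paired analysis was possible because each population had 1 library. Over 10 alternatives none of the 14 called differences of members changed sign, and none of 30 in the 3 further lists, whose alternatives were added after seeing the data. Of those 30, 10 were lost with equal sums, 2 with median ratios, 3 with equal 75th percentiles, 12 with a pseudocount of 10 and 26 with a limit of 3. The members higher in Gr-1+ CD11b+ cells and in DC, 2 and 2 as reported, were 1 and 0 with a pseudocount of 10, 6 and 5 with a log2 limit of 1, 1 and 0 with a limit of 3, 1 and 4 with equal sums, and 5 and 0 with equal 75th percentiles. With a floor of 30 FPKM 1 was higher in DC, and with median ratios 0. Median ratios gave 3 higher in Gr-1+ CD11b+ cells, and a pseudocount of 0.1 gave 3 higher in DC. Against macrophages, the 1 member higher in Gr-1+ CD11b+ cells became 2 with no floor, median ratios, equal 75th percentiles or a limit of 1. It became 0 with a limit of 3. The 3 higher in macrophages became 7 with a limit of 1. They became 2 with a pseudocount of 10, a floor of 30 FPKM, a limit of 3, median ratios or equal 75th percentiles. For DC and macrophages, the 1 and 5 members became 0 and 3 with a pseudocount of 10, 4 and 10 with a limit of 1, and 0 and 1 with a limit of 3. The 1 higher in DC became 3 with equal sums and 0 with a floor of 30 FPKM or equal 75th percentiles. The 5 higher in macrophages became 4 with a floor of 30 FPKM. The median difference of the members lay between -0.36 and 0.75 for Gr-1+ CD11b+ cells minus DC, -0.65 and 0.51 for Gr-1+ CD11b+ cells minus macrophages, and -0.19 and 0.12 for DC minus macrophages, so its sign depended on scaling and on background. Equal 75th percentiles moved the median of all genes by 0.61, 0.44 and -0.10 in that order, and equal sums by -0.28, 0.01 and 0.25. The Gr-1+ CD11b+ library was the shallowest and had the highest silent-gene level, so members under 9.67 FPKM there could not be read.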
